A study of Homo sapiens with 24 samples.

Results

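The genes described here encode the RNA polymerases, their general transcription factors and a set of elongation factors. They were chosen by gene symbol alone: names that begin with POLR1, POLR2 or POLR3 and a letter, or with GTF2, GTF3, SUPT, ELOA or NELF, together with ELL, PAF1, CTR9, LEO1, CDC73, RTF1 and SSRP1. The choice took in 69 of the 9822 genes of the deposited count table. They were sorted into 13 role lists of 3 to 10 genes, and 21 further symbols of those lists, among them ELL2, NELFE and GTF2H4, were not analysed here. GTF2IRD1P1 came in through the symbol rule without having been on a list. Of the 69 genes, 4 are noncoding or pseudogene transcripts (GTF3C2-AS1, ELOA-AS1, GTF2IRD1P1 and POLR2J4).

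The series compared MOLT4 cells, an established human T-cell acute lymphoblastic leukaemia line, given SK-3-91 or the solvent DMSO. SK-3-91 is labelled a pan-kinase degrader, a compound that brings many protein kinases to the cell's protein disposal machinery. Cells were collected after 1, 4 or 8 h, which makes 6 groups of 4 libraries, all from the same line in the same medium. No source used states the dose. The labels do not state whether the 4 replicates of a group are independent cultures; each p-value measures the spread between these libraries, which may be technical.

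RNA polymerase I transcribes the ribosomal RNA precursor, polymerase II the messenger RNAs, and polymerase III the transfer RNAs, the 5S ribosomal RNA and other short RNAs. Each is built from a large catalytic pair and smaller subunits, some of which are common to all 3 enzymes, and each is brought to its promoters by its own set of general factors. After initiation, polymerase II is held near the promoter by the pausing factors DSIF and NELF and released by kinases, among them the cyclin-dependent kinase of P-TEFb, before the PAF1 complex, SPT6, FACT, ELL and elongin accompany it along the gene.

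Counted reads ranged from 6.863 to 14.626 megareads per library, and SK-3-91 totals averaged 96.2%, 74.7% and 58.3% of the DMSO totals at 1, 4 and 8 h (two-sided exact permutation p = 0.0286 at each time, the smallest that 4 against 4 allows). The 69 genes took 0.845% ± 0.0037 of counted reads in SK-3-91 and 0.836% ± 0.0025 in DMSO at 1 h, and 0.771% ± 0.012 and 0.823% ± 0.0046 at 8 h (SD, n = 4; exact permutation p = 0.0286 for both). A total of counted reads does not by itself measure an amount of RNA, and RNA of whole cultures was sequenced. Fewer cells, less RNA per cell and the handling or sequencing of the libraries cannot be told apart here. The part of the falling depth in the results below was not tested. All 12 T-cell markers were measured. CPM here are counts scaled to library totals adjusted by TMM factors, which take most genes to keep their share. Without these factors the median log2 fold change of all genes moved from -0.05 to -0.35 at 4 h. At 8 h it moved from -0.11 to -0.54. With the factors, the summed level of the T-cell markers was higher in SK-3-91, without overlap, at all 3 times. Whether the sum stays higher without the factors was not tested, so its direction at 4 and 8 h may rest on the scaling. With the factors, the sum ranged from 3345 to 3453 CPM in DMSO and 3560.5 to 3769 CPM in SK-3-91 at 1 h. It ranged from 3453 to 3555 and 4286 to 4593 CPM at 4 h, and from 3769 to 4019 and 4031 to 4700.1 CPM at 8 h. The table held 0 of 7 myeloid, 0 of 5 erythroid and 0 of 5 epithelial markers. Of 7 B-cell markers it held CD79A, which stood at 6.35 to 10.4 CPM in DMSO and 23.3 to 30.5 CPM in SK-3-91 at 8 h. Of 6 fibroblast and endothelial markers it held PECAM1, at 42.7 to 43.7 CPM in DMSO and 15.7 to 20.8 CPM in SK-3-91 at 8 h. The part of these markers in the results was not tested.

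The machinery did not move as one block. By 8 h 9 of 10 polymerase III subunits and 3 of 5 polymerase I subunits were lower in SK-3-91 (10 and 4 without scaling factors). Of 7 polymerase II subunits 5 were higher (4 without), as were 4 of 5 shared subunits, and members of single complexes had moved in opposite directions. Of all genes, 41.3% were higher and 48.1% lower at 8 h. The polymerase counts follow gene symbols and leave out subunits listed under other symbols. The polymerase I subunit POLR1F, listed as TWISTNB, is not among the 5 and was 5.93-fold higher. CD3EAP (POLR1G) of polymerase I and CRCP of polymerase III were measured but are not in these counts either. POLR1C and POLR1D, which polymerases I and III share, are counted under polymerase I only. POLR3D was 7.48-fold lower and GTF2E1 6.54-fold lower at 8 h, while GTF3C4 was 5.66-fold higher, POLR1D 5.45-fold higher and ELL 4.54-fold higher. These values are relative to the other genes of the same library, since CPM were scaled by TMM factors, which take most genes to keep their share.

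A gene was called where edgeR's quasi-likelihood test gave an adjusted p under 0.05 over all 9822 genes. At 1 h, 33 of the 69 genes were called (47.8%; all genes 54.3%), 17 higher (24.6%; all genes 24.9%) and 16 lower (23.2%; all genes 29.4%). With RLE scaling factors the 1 h split was 26 higher and 15 lower (37.7% and 21.7%; all genes 33.1% and 26.2%), and with DESeq2 27 and 15 (39.1% and 21.7%; all genes 32.7% and 25.8%). At 4 h, 63 were called (91.3%; all genes 87.9%), 30 higher (43.5%; all genes 42.0%) and 33 lower (47.8%; all genes 45.9%). At 8 h, 63 were called (91.3%; all genes 89.4%), 26 higher (37.7%; all genes 41.3%) and 37 lower (53.6%; all genes 48.1%). These shares lay close to those of all genes, and the set does not stand out by its number of calls. A change of at least 2-fold was called in 0 genes at 1 h in either direction (all genes 0.0509% higher and 3.25% lower). It was called in 6 higher and 16 lower at 4 h (8.7% and 23.2%; all genes 9.2% and 18.2%) and in 12 higher and 16 lower at 8 h (17.4% and 23.2%; all genes 16.8% and 23.5%). Tested against a minimum fold of 1.5, edgeR called 0 higher and 2 lower at 1 h (0% and 2.9%; all genes 0.0509% and 5.83%), the lower genes being GTF2E1 and POLR3F. The counts were 14 and 19 at 4 h (20.3% and 27.5%; all genes 19.7% and 25.7%) and 17 and 27 at 8 h (24.6% and 39.1%; all genes 25.4% and 31.1%). The 4 treated libraries lay wholly above or below the 4 DMSO libraries in 33, 62 and 60 genes at 1, 4 and 8 h (47.8%, 89.9% and 87%; all genes 51.0%, 83.3% and 83.9%). The median log2 fold change of the 69 genes was 0.04, -0.11 and -0.16 in order of time, beside 0.01, -0.05 and -0.11 over all genes. Without scaling factors the median of all genes shifted to -0.35 at 4 h and -0.54 at 8 h, and the 69 genes split 21 higher to 40 lower at 4 h (30.4% and 58%; all genes 29.2% and 58.6%) and 18 to 47 at 8 h (26.1% and 68.1%; all genes 28.3% and 62.6%).

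**Figure D1:**
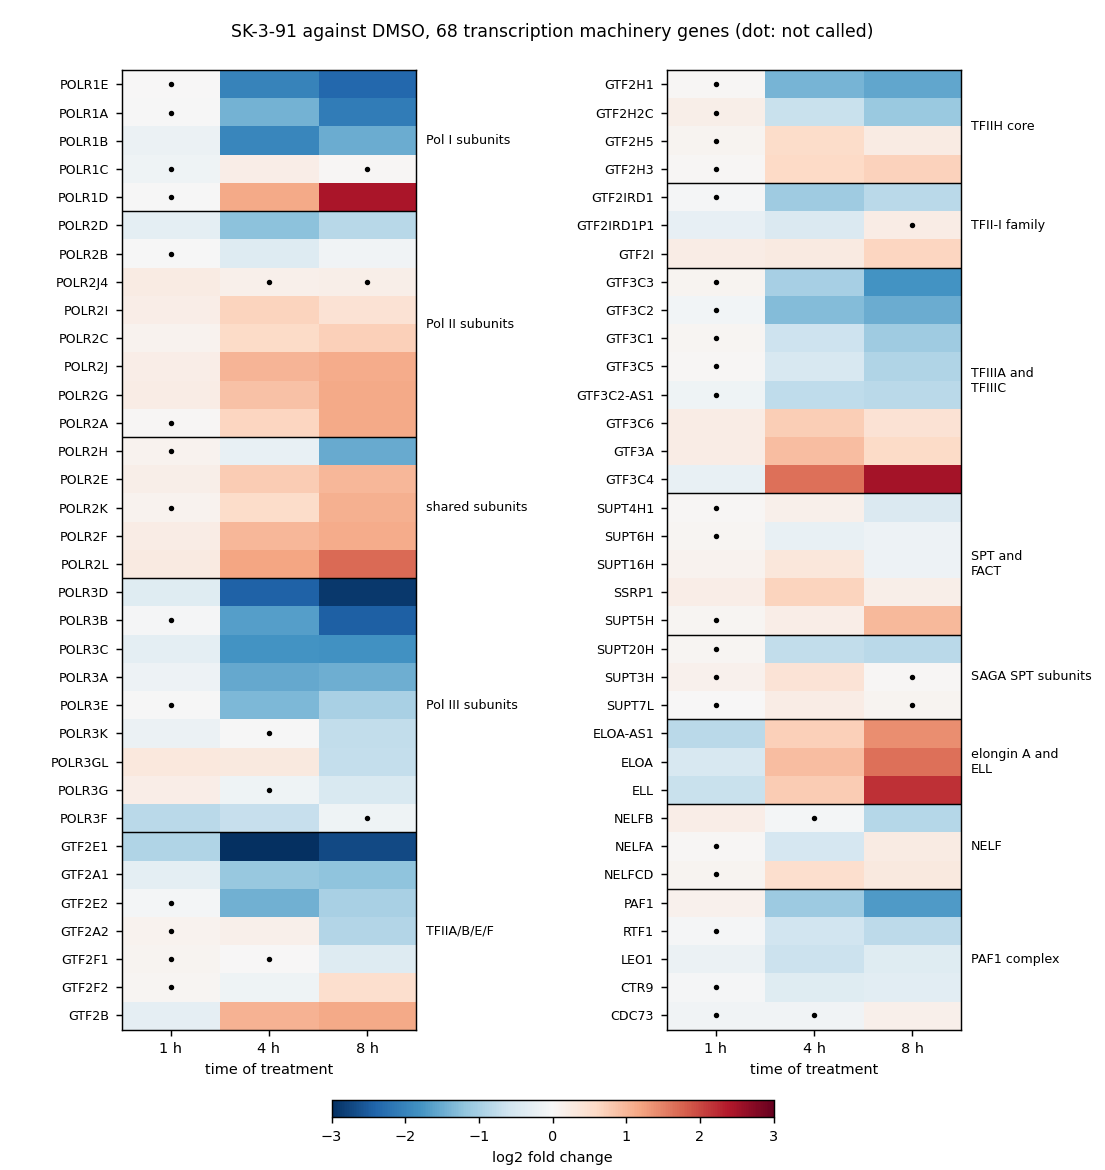
Heat map of the log2 fold change of SK-3-91 against DMSO for 68 of the 69 genes (rows, sorted within each role list by the 8 h value) at 1, 4 and 8 h (columns); red is higher, blue lower, and a dot marks a value not called by edgeR. Colour is faint at 1 h and ranges from -2.90 for POLR3D to 2.50 for GTF3C4 at 8 h.

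The heat map of members shows the spread within lists as well as between them. Of the 69 genes, 23 were higher at both 4 and 8 h (33.3%; all genes 33.2%) and 29 lower at both (42%; all genes 38.2%). From 4 to 8 h 4 went from higher to lower (5.8%; all genes 4.62%) and 2 from lower to higher (2.9%; all genes 3.71%). The most frequent sequence of calls, in 20 genes (29%; all genes 18.5%), was no call at 1 h and a lower level at 4 and 8 h, as in POLR1A, POLR1E, POLR3B, GTF2H1 and GTF3C3. A higher level at all 3 times was called in 11 genes (15.9%; all genes 14.7%), and a lower level at all 3 times in 8 (11.6%; all genes 16.3%).

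Promoters are shown for 5 genes that moved strongly or in opposite directions, because 4 of them hold the same short motif. RefSeq promoters (GRCh38.p14) matched 56 of the 69 genes, and the 250 bases before each start were searched on both strands for 8 motifs chosen after the data were seen. The sequences run 5′ to 3′ on the gene's strand, and capitals mark motif matches, which do not overlap in these genes. GTF3C4 (chr9:132669785-132670034, plus strand) and GTF2B (chr1:88891568-88891817, minus strand) rose at 4 and 8 h, and POLR3A (chr10:78029516-78029765, minus strand), GTF2H1 (chr11:18322317-18322566, plus strand) and GTF2E1 (chr3:120742494-120742743, plus strand) fell.
GTF3C4: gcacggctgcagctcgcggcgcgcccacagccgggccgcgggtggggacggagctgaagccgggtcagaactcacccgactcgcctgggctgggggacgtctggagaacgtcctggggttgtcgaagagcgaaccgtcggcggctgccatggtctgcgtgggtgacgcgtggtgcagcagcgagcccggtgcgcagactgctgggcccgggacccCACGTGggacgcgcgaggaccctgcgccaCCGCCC
GTF2B: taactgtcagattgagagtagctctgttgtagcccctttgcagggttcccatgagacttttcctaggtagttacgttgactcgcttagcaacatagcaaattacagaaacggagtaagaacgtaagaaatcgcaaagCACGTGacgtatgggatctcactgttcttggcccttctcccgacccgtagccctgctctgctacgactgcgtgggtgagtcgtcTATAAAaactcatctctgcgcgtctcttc
POLR3A: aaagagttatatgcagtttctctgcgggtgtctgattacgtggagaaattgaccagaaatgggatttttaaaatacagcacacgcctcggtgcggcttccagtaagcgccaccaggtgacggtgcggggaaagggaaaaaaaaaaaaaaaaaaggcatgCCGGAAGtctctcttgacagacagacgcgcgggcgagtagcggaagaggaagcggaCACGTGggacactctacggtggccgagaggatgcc
GTF2H1: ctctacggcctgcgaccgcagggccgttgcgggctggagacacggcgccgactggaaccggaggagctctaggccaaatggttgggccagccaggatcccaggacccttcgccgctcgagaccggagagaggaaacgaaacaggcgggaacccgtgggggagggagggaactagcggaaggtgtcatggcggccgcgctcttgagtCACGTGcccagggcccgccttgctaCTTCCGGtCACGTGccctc
GTF2E1: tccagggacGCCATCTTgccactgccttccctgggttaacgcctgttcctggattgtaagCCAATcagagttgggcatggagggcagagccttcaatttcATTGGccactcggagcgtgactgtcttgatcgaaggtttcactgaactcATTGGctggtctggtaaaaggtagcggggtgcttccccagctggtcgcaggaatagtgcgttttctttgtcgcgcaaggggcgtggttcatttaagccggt
The E-box CACGTG stands in GTF3C4, GTF2B, POLR3A and, with 2 copies, in GTF2H1. GTF3C4 also holds a GC box (GGGCGG, here on the other strand), GTF2B a TATA box (TATAAA), and POLR3A and GTF2H1 an ETS motif (CCGGAAG). GTF2E1 holds a YY1 motif (GCCATNTT) and 3 CCAAT boxes (CCAAT) and none of the other motifs searched. Over the set, the E-box was in 9 of 56 promoters (16.1%; 9.65% of the 8103 promoters of genes in the table and 6.34% of all 35116 promoters). It was in 3 of the 20 promoters of genes higher at 8 h and in 6 of the 32 of genes lower at 8 h. The ETS motif was in 20 of 56 (35.7%; 17.6% of table promoters, 8.52% of all), in 6 of 20 and 12 of 32 by direction. The NRF1 motif (GCGC, any base, then TGCGC) was in 12 of 56 (21.4%; 11.8% of table promoters, 5.07% of all), and the GC box in 37 of 56 (66.1%; 68.9% of table promoters, 42.6% of all). The CCAAT box was in 9 of 56 (16.1%; 35.8% of table promoters, 32% of all) and the YY1 motif in 5 (8.93%; 4.57% and 3.86%). A TATA box was in 2 (3.57%; 4.53% and 10.7%) and the CRE motif (TGACGTCA) in 1 (1.79%; 3.06% and 1.65%). The median GC content was 68.8% in promoters of genes higher at 8 h and 60.2% in those of genes lower, beside 65.2% over the table. A match is a description of these letters, not of a bound site.

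Polymerase I subunits split. POLR1A and POLR1B, the catalytic pair, and POLR1E, which helps the enzyme bind its promoter factors, fell at 4 and 8 h, while POLR1D, which sits in the assembly platform of polymerases I and III, rose. POLR1B stood at 62.7, 65.6, 62.4 and 64.5 CPM in the 4 DMSO libraries at 4 h and at 14.9, 16.2, 17.5 and 17.5 CPM in the 4 SK-3-91 libraries. The lowest DMSO library was thus far above the highest treated one. In order of time its log2 fold change (± SE, 4 libraries a group) was -0.19 ± 0.05, -1.95 ± 0.06 and -1.49 ± 0.07 (edgeR adjusted p = 0.00288, 3.1e-27 and 2.5e-22). The fall was smaller at 8 h than at 4 h by a tested difference of 0.46 ± 0.10 (edgeR adjusted p = 1.5e-04). POLR1A continued down, from -1.41 at 4 h to -2.11 at 8 h (difference -0.70 ± 0.09, edgeR adjusted p = 1.7e-08), and POLR1E went from -2.01 to -2.37.

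POLR1D had 178, 167, 184 and 175 CPM in DMSO and 974, 912, 987 and 965 CPM in SK-3-91 at 8 h. No treated value came near the DMSO range, whereas at 1 h the groups overlapped. The log2 fold change of POLR1D was 1.14 ± 0.04 at 4 h and 2.45 ± 0.04 at 8 h (edgeR adjusted p = 1.5e-27 and 2.4e-38). POLR1C, its partner in the platform, gave 0.20 ± 0.06 at 4 h, a call whose sign turned to -0.10 without scaling factors, and 0.03 ± 0.07 at 8 h (edgeR adjusted p = 0.626). The list does not hold POLR1F (TWISTNB) or POLR1G (CD3EAP). Its median was -0.02 at 1 h (0.02 with RLE factors), -1.41 at 4 h and -1.49 at 8 h.

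The polymerase II list holds 7 subunits and the noncoding POLR2J4. Of the 7 subunits, 4 were higher and 1 lower at 1 h, and 5 were higher and 2 lower at both 4 and 8 h (4 and 2 at 8 h without scaling factors). POLR2A, the largest subunit with the repeated tail that kinases phosphorylate, had 519.6, 465, 457 and 479 CPM in DMSO and 1055, 1036, 1110.5 and 1056 CPM in SK-3-91 at 8 h. Every treated library was far above the highest DMSO library. The log2 fold change of POLR2A was 0.04 ± 0.05 after 1 h, which was not called, then 0.64 ± 0.05 and 1.15 ± 0.05 (edgeR adjusted p = 0.5, 3.5e-16 and 1.2e-24). POLR2B, the other catalytic subunit, did not follow: it was -0.38 ± 0.04 at 4 h and -0.10 ± 0.04 at 8 h (edgeR adjusted p = 0.0247). The 8 h call of POLR2B was lost without DMSO replicate 3 (adjusted p = 0.0785) or without SK-3-91 replicate 3 (adjusted p = 0.174), and with RLE factors, where the value was -0.0041.

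The stalk pair of polymerase II moved apart. POLR2D fell by 2.33-fold at 4 h (-1.22 ± 0.05) and was -0.84 ± 0.05 at 8 h, whereas its partner POLR2G was 0.87 ± 0.06 and 1.14 ± 0.06. POLR2D stood at 140.1, 135, 146 and 145 CPM in DMSO and 59.7, 63.6, 58.7 and 60.7 CPM in SK-3-91 at 4 h. POLR2G stood at 63.1, 59.8, 63.5 and 70.4 CPM and 114, 114, 118 and 124 CPM in the same libraries. Neither gene's groups overlapped at 4 h. The other called members at 8 h were POLR2J (1.12), POLR2C (0.72) and POLR2I (0.44), core subunits that were higher at all 3 times. POLR2J shares 42.6% of its 32-base words with other genes, most with POLR2J3, and 79.6% of POLR2I exon bases lie opposite another gene's exons, so both values are uncertain. Without scaling factors the 8 h call of POLR2I was lost (0.0055). At 1 h the calls of POLR2C, POLR2I, POLR2J and POLR2J4 were each lost without 1 or more single libraries, with adjusted p of up to 0.114, 0.0656, 0.0995 and 0.0888. POLR2J4, a noncoding relative of POLR2J, was 0.16 ± 0.09 at 4 h and 0.18 ± 0.10 at 8 h, neither called, and its shared sequence was not assessed.

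Of the 5 subunits common to all 3 polymerases, 3 were higher at 1 h, and 4 were higher and 1 lower at 4 and 8 h, with medians of 0.17, 0.77 and 1.06. POLR2L had 115, 113, 114 and 139 CPM in DMSO and 412, 408, 399.9 and 340.0 CPM in SK-3-91 at 8 h. DMSO replicate 4 was the highest control and still well under the lowest treated library. Its log2 fold change was 0.26 ± 0.06, 1.18 ± 0.06 and 1.70 ± 0.06 at the 3 times (edgeR adjusted p = 6.9e-04, 1.5e-20 and 4.2e-26); 22.5% of its exon bases lie opposite another gene's exons. At 8 h POLR2F was 1.11, POLR2K 1.06 and POLR2E 0.99. POLR2H was the exception, with 66.3, 63.5, 65.03 and 66.7 CPM in DMSO and 23.5, 23.9, 23.1 and 21.6 CPM in SK-3-91 at 8 h. All 4 treated values were far below the controls. It went from -0.23 ± 0.05 at 4 h to -1.51 ± 0.07 at 8 h, a tested difference of -1.27 ± 0.09 (edgeR adjusted p = 3.3e-16).

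Of the 10 polymerase III subunits with POLR3 symbols, 2 were higher and 5 lower at 1 h, and 1 was higher and 7 lower at 4 h. At 8 h 0 were higher and 9 lower, and the medians were -0.09, -1.03 and -0.86 in order of time. The remaining gene at 8 h was POLR3F, which was called lower with upper-quartile factors and without factors. POLR3D, which pairs with POLR3E in a module used for initiation and termination, had 48.9, 54.8, 52.5 and 54.9 CPM in DMSO and 6.32, 6.35, 7.56 and 8.12 CPM in SK-3-91 at 8 h. The treated libraries had the lowest levels of this gene in the series. Its log2 fold change was -0.37 ± 0.05, -2.44 ± 0.07 and -2.90 ± 0.09 (edgeR adjusted p = 2.2e-07, 1.8e-29 and 2.9e-29). POLR3E was -1.35 at 4 h and -0.96 at 8 h, a partial return that was itself tested (0.39 ± 0.09, edgeR adjusted p = 1.6e-04).

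The catalytic pair of polymerase III fell together. POLR3A was -1.53 ± 0.05 at 4 h and -1.47 ± 0.06 at 8 h. POLR3B was -1.65 ± 0.07 and -2.45 ± 0.10, and its 8 h libraries held 36.2, 35.1, 34.4 and 34.4 CPM in DMSO and 5.62, 5.52, 7.56 and 7.25 CPM in SK-3-91. Those ranges lay far apart. POLR3C, of the initiation trimer that melts the promoter, was -0.30 ± 0.06, -1.80 ± 0.08 and -1.81 ± 0.09.

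POLR3F, another member of that trimer, was lower at 1 and 4 h. It had 36.7, 32.7, 34.1 and 31.9 CPM in DMSO and 17.98, 20.97, 19.9 and 18.02 CPM in SK-3-91 at 1 h, without overlap, and 31.4, 29.3, 33.9 and 29.4 and 30.6, 28.8, 26.4 and 26.7 CPM at 8 h, where the groups overlapped. The log2 fold change was -0.82 ± 0.07, -0.70 ± 0.07 and -0.13 ± 0.08, the last not called (edgeR adjusted p = 0.089). Its 8 h value was called at -0.30 with upper-quartile factors and at -0.56 without factors, and was -0.04 with RLE factors. The third trimer position is filled by POLR3G or by its paralogue POLR3GL. POLR3G was 0.19 ± 0.08 at 1 h, -0.12 ± 0.09 at 4 h (not called) and -0.46 ± 0.10 at 8 h. Its 1 h call was lost without any 1 of 4 libraries (DMSO replicate 3 or 4, SK-3-91 replicate 2 or 4; adjusted p of up to 0.171). POLR3GL was 0.31 ± 0.07, 0.29 ± 0.08 and -0.70 ± 0.09, and its 4 h value became -0.0035 without scaling factors. POLR3GL thus turned between 4 and 8 h by -0.999 ± 0.12 (edgeR adjusted p = 3.0e-09). POLR3K, needed for termination, was -0.75 at 8 h. POLR3K is uncertain, since it shares 21.7% of its 32-base words with other genes, most with its neighbour SNRNP25.

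The list of the polymerase III factors TFIIIA and TFIIIC split, with 3 higher and 5 lower of 8 genes at both 4 and 8 h. The medians were -0.55 and -0.85. The 5 lower genes and the medians include the noncoding GTF3C2-AS1. GTF3C4, the TFIIIC subunit with reported histone acetyltransferase activity, had 39.7, 40.9, 39.7 and 37.05 CPM in DMSO and 228, 219, 231 and 214 CPM in SK-3-91 at 8 h. Its 8 h log2 fold change was the highest of the 69 genes, with that of POLR1D next. It gave -0.22 ± 0.06, 1.66 ± 0.05 and 2.50 ± 0.05 at 1, 4 and 8 h (edgeR adjusted p = 8.8e-04, 9.5e-28 and 9.6e-34). Its partners in the complex fell: GTF3C3 was -0.99 and -1.79, GTF3C2 -1.30 and -1.48, GTF3C1 -0.63 and -1.06, and GTF3C5 -0.48 and -0.90 at 4 and 8 h. GTF3C6, a small subunit, rose (0.75 and 0.44) but lost its 8 h call without scaling factors (0.01) and shares 25.5% of its 32-base words with other genes. GTF3A, which binds the 5S ribosomal RNA gene, was 0.22 ± 0.05, 0.93 ± 0.05 and 0.58 ± 0.05. GTF3C2-AS1 (-0.80 at 8 h) lies opposite GTF3C2, and the strand setting of the counting is unknown, so reads on their shared stretch cannot be told apart and both values are uncertain.

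**Figure D2:**
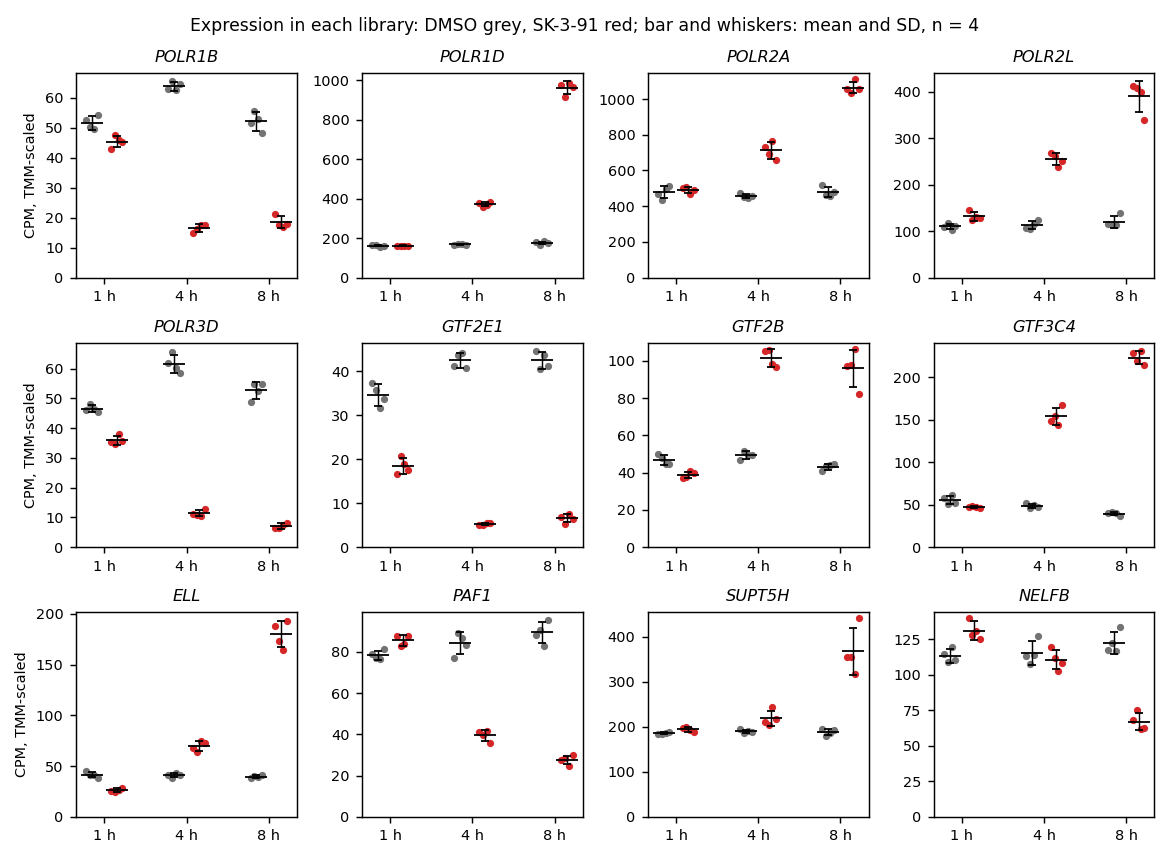
CPM scaled by TMM factors (vertical axes, from 0) of 12 genes in every library at 1, 4 and 8 h; grey points are DMSO, red points SK-3-91, and bars and whiskers are the mean and SD of 4 libraries. At 8 h the groups of all 12 genes stand apart, whereas at 1 h those of POLR1D and POLR2A overlap. At 1 h the groups of SUPT5H meet at 187.85 CPM.

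Among the factors that assemble with polymerase II at the promoter, the TFIIA, TFIIB, TFIIE and TFIIF genes gave 0 higher and 3 lower of 7 at 1 h, 2 and 4 at 4 h, and 2 and 5 at 8 h, with medians of -0.06, -0.13 and -0.87. GTF2E1, the large subunit of TFIIE, which recruits TFIIH, fell most of the 69 genes at 1 and at 4 h. It had 37.3, 35.8, 31.7 and 33.7 CPM in DMSO and 16.6, 20.8, 18.96 and 17.6 CPM in SK-3-91 at 1 h. At 4 h it had 41.2, 43.7, 44.2 and 40.7 CPM and 5.12, 5.08, 5.52 and 5.42 CPM. The treated libraries were below every control at all 3 times. Its log2 fold change was -0.90 ± 0.07, -3.003 ± 0.09 and -2.71 ± 0.10 (edgeR adjusted p = 6.2e-15, 1.5e-28 and 1.6e-26). The small subunit GTF2E2 was -1.44 at 4 h and -0.97 at 8 h. GTF2A1, a TFIIA subunit that steadies the TATA-binding protein on DNA, was -0.29, -1.15 and -1.20.

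GTF2B encodes TFIIB, which links the TATA-binding protein to the polymerase, and was the member of this list that rose most. It had 49.9, 48.00, 44.5 and 44.5 CPM in DMSO and 37.1, 37.5, 40.8 and 39.7 CPM in SK-3-91 at 1 h, and 46.9, 51.8, 49.6 and 49.7 and 105, 106, 98.4 and 96.95 CPM at 4 h. The groups did not overlap at either time, and the order of the groups turned. GTF2B gave -0.27 ± 0.06, 1.04 ± 0.05 and 1.14 ± 0.06 at 1, 4 and 8 h, and the turn was 1.31 ± 0.08 (edgeR adjusted p = 5.8e-18). Of the 2 TFIIF subunits, GTF2F2 was 0.50 ± 0.06 at 8 h, a call lost without scaling factors (0.07), and GTF2F1 was -0.38 ± 0.05. GTF2A2 was 0.15 ± 0.06 at 4 h, a call lost without any 1 of 3 libraries (DMSO replicate 3, SK-3-91 replicate 2 or 4; adjusted p of up to 0.0905) and turned to -0.15 without scaling factors, and -0.87 ± 0.08 at 8 h.

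TFIIH opens the promoter and carries a kinase, and 4 of its core genes were measured. GTF2H1 had 61.9, 62.3, 66.8 and 59.4 CPM in DMSO and 20.8, 23.04, 20.3 and 21.02 CPM in SK-3-91 at 8 h. Its groups overlapped at 1 h and were far apart at 4 and 8 h. It was -1.40 ± 0.06 at 4 h and -1.55 ± 0.06 at 8 h (edgeR adjusted p = 1.4e-24 and 3.3e-24). GTF2H3 was higher (0.60 and 0.69), as was GTF2H5 (0.56 and 0.25), although the 8 h value of GTF2H5 turned to -0.18 without scaling factors. GTF2H2C, at 2.11, 2.07, 2.40 and 1.59 CPM in SK-3-91 at 8 h (-1.12 ± 0.18), shares 81.0% of its 32-base words with other genes, most with GTF2H2, and is uncertain. In the TFII-I family, GTF2I was 0.65 ± 0.05 at 8 h but shares 69.9% of its words with other genes, most with the pseudogene GTF2IP1, and GTF2IRD1 was -0.81 ± 0.15, at a low level of 3.79, 3.72, 4.80 and 4.06 CPM. The pseudogene transcript GTF2IRD1P1 was -0.43 ± 0.11 at 4 h and 0.21 ± 0.11 at 8 h (not called; -0.22 without scaling factors, not called either), shares 48.4% of its words with other genes and is uncertain. Its 1 h call (-0.25 ± 0.10) was lost without any 1 of 4 libraries (DMSO replicate 2 or 4, SK-3-91 replicate 1 or 3; adjusted p of up to 0.0964).

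Elongin A and ELL, which speed up elongation by polymerase II, fell at 1 h and rose afterwards. ELL had 45.4, 40.9, 41.5 and 38.5 CPM in DMSO and 25.03, 24.3, 26.6 and 28.4 CPM in SK-3-91 at 1 h. By 8 h it had 38.2, 40.04, 38.9 and 41.4 CPM and 188, 174, 165 and 193 CPM. The treated libraries lay below every control at 1 h and above every control at 4 and 8 h. ELL was -0.67 ± 0.06, 0.77 ± 0.06 and 2.18 ± 0.06 at the 3 times (edgeR adjusted p = 7.4e-12, 1.9e-15 and 2.2e-31). The response differed between 1 and 4 h by 1.44 ± 0.09 and between 4 and 8 h by 1.41 ± 0.08 (edgeR adjusted p = 2.9e-18 and 2.9e-18).

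ELOA had 94.7, 90.99, 96.9 and 91.3 CPM in DMSO and 66.2, 65.2, 65.6 and 69.7 CPM in SK-3-91 at 1 h, and 83.1, 82.3, 81.6 and 81.1 and 259, 252, 266 and 249.5 CPM at 8 h. The groups were separate at both times and in opposite order. Its log2 fold change was -0.49 ± 0.04, 0.93 ± 0.04 and 1.64 ± 0.04. ELOA-AS1, transcribed from the opposite strand, gave -0.81 ± 0.10, 0.73 ± 0.09 and 1.40 ± 0.09. Because 57.2% of ELOA-AS1 exon bases, and 14.3% of those of ELOA, lie opposite exons of another gene, the reads of the pair cannot be told apart on their shared stretch, and the 3 of 3 count of this list rests on 2 separate loci.

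Of the 5 genes of DSIF, SPT6 and FACT, 4 rose and 1 fell at 4 h, against 1 and 2 without scaling factors; at 8 h 2 rose and 3 fell, against 1 and 4. SUPT5H, the large DSIF subunit that P-TEFb phosphorylates, had 195, 180.1, 186 and 192 CPM in DMSO and 356, 356, 316 and 442 CPM in SK-3-91 at 8 h. SK-3-91 replicate 4 was the highest, and all 4 treated libraries were above all controls. SUPT5H was 0.07 ± 0.06 at 1 h (not called), 0.21 ± 0.06 at 4 h, a value that turned to -0.09 without scaling factors, and 0.97 ± 0.06 at 8 h (edgeR adjusted p = 3.2e-19). SUPT4H1, the small DSIF subunit, was 0.14 ± 0.05 at 4 h (-0.15 without scaling factors) and -0.43 ± 0.05 at 8 h. Its groups overlapped at 4 h, where the call was lost without SK-3-91 replicate 1 (adjusted p = 0.0521), and it shares 83.5% of its 32-base words with other gene models, most with AC004687.2. SUPT6H was -0.22 ± 0.04 and -0.16 ± 0.04, with overlapping groups at 8 h, where its call was lost with RLE factors (-0.07).

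The FACT pair, which moves histones out of the way of the polymerase, was higher at 4 h, although without scaling factors the call of SUPT16H was lost (0.04). SSRP1 had 682, 708, 709.9 and 701 CPM in DMSO and 1117, 1096, 1152 and 1061 CPM in SK-3-91 at 4 h, without overlap. It was 0.19 ± 0.04, 0.66 ± 0.04 and 0.18 ± 0.04, the last turning to -0.25 without scaling factors. SUPT16H was 0.11 ± 0.04, 0.34 ± 0.04 and -0.16 ± 0.04; its 1 h call was lost without SK-3-91 replicate 4 (adjusted p = 0.0691), and its 8 h call with RLE factors (-0.06). Without scaling factors the median of this list turned from 0.21 to -0.09 at 4 h. Of the 3 SAGA subunits in the SUPT series, SUPT20H fell (-0.74 ± 0.04 and -0.82 ± 0.05) and SUPT3H and SUPT7L gave 0.04 ± 0.13 and 0.09 ± 0.05 at 8 h, neither called. At 4 h SUPT3H was called at 0.41 ± 0.12 and SUPT7L at 0.22 ± 0.05; without scaling factors the first lost its call (0.11) and the second turned to -0.08. SUPT7L shares 21.9% of its words with other genes, most with GPN1, and is uncertain.

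The 3 NELF genes each followed a course of their own. NELFB had 118, 122, 116 and 134 CPM in DMSO and 67.9, 75.04, 61.97 and 62.8 CPM in SK-3-91 at 8 h, after 115, 109, 119.8 and 110.3 and 139.9, 128, 131 and 125 CPM at 1 h. The treated libraries were above the controls at 1 h and below them at 8 h. It was 0.21 ± 0.05, -0.06 ± 0.06 (not called) and -0.87 ± 0.06. NELFA was -0.50 ± 0.05 at 4 h and 0.25 ± 0.05 at 8 h, and NELFCD 0.50 ± 0.04 and 0.30 ± 0.04; without scaling factors both 8 h values turned, to -0.18 and -0.14.

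Within the PAF1 complex 4 of 5 genes were lower at 4 and at 8 h, with medians of -0.58 and -0.37. PAF1 had 88.4, 90.7, 82.9 and 95.6 CPM in DMSO and 27.4, 28.4, 24.7 and 29.7 CPM in SK-3-91 at 8 h. The highest treated library lay far below the lowest control. PAF1 gave 0.13 ± 0.05, -1.09 ± 0.06 and -1.69 ± 0.06 at 1, 4 and 8 h (edgeR adjusted p = 0.0294, 7.4e-21 and 1.3e-25). The small 1 h call was lost without any 1 of 4 libraries (DMSO replicate 2 or 3, SK-3-91 replicate 1 or 4; adjusted p of up to 0.0783). RTF1 was -0.58 and -0.79, CTR9 -0.36 and -0.32, and LEO1 -0.64 and -0.37 at 4 and 8 h. CDC73 was -0.11 ± 0.06 at 4 h (not called) and 0.16 ± 0.06 at 8 h, with overlapping groups. The 8 h call of CDC73 was lost without any 1 of 4 libraries (DMSO replicate 2 or 4, SK-3-91 replicate 1 or 4; adjusted p of up to 0.0966) and its sign turned with upper-quartile factors (-0.01) and without factors (-0.28).

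**Figure D3:**
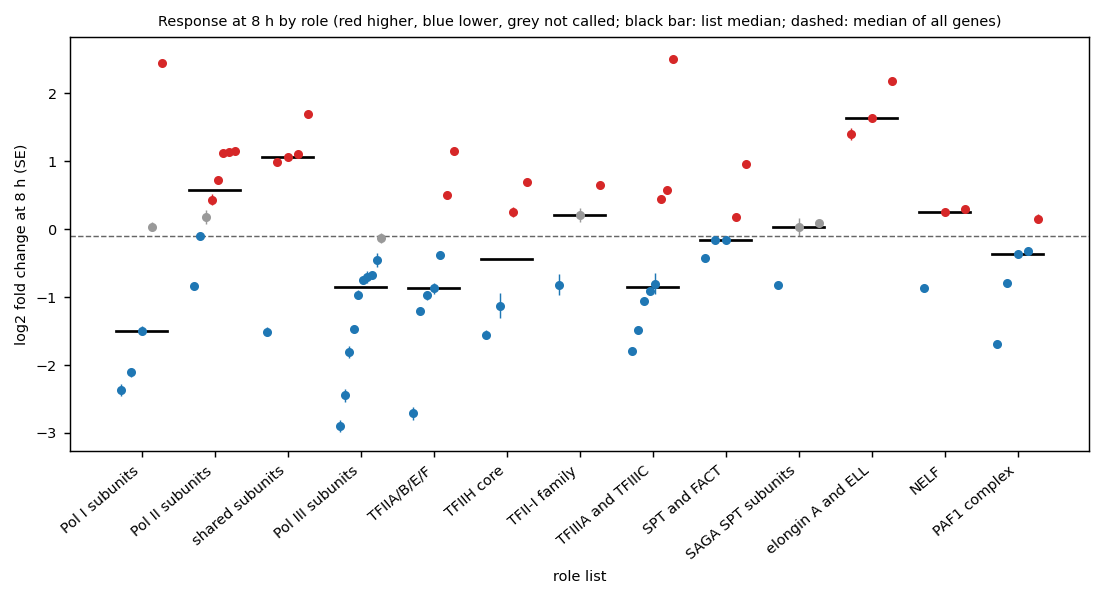
Log2 fold change at 8 h (vertical axis, whiskers are the SE) of each gene by role list; red is higher, blue lower, grey not called, the black bar is the list median and the dashed line the median of all genes (-0.11). List medians run from -1.49 for the polymerase I subunits to 1.64 for elongin A and ELL; without scaling factors the medians of the TFII-I, SAGA and NELF lists at 8 h turn to -0.22, -0.39 and -0.18.

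The plot of the 8 h response by role shows that 10 of the 13 lists held calls in both directions (11 with RLE factors, 9 with upper-quartile factors and 8 without factors). Of all genes, 41.3% were higher and 48.1% lower at 8 h. Whether other lists of such sizes hold both directions as often was not tested. POLR1C and POLR1D, which polymerases I and III share, stand in the polymerase I list only. POLR1D was higher at 8 h and POLR1C was not called. Lists with calls in 1 direction only at 8 h were the polymerase III subunits by symbol (0 higher, 9 lower), the SAGA subunits (0 and 1) and elongin A and ELL (3 and 0). Without scaling factors these lists gave 0 and 10, 0 and 3, and 3 and 0, and the NELF list (0 and 3) and the PAF1 complex (0 and 5) joined them.

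The response differed between 1 and 4 h in 58 of the 69 genes (84.1%; all genes 80.4%), with 25 shifting up and 33 down (36.2% and 47.8%; all genes 40.6% and 39.9%), and between 4 and 8 h in 50 (72.5%; all genes 68.6%), with 24 up and 26 down (34.8% and 37.7%; all genes 35.6% and 33.0%). Both contrasts share the 4 h libraries. The largest gains from 1 to 4 h were in GTF3C4 (1.88 ± 0.08), ELOA-AS1 (1.54 ± 0.13), ELL (1.44) and ELOA (1.41), and the largest losses in GTF2E1 (-2.10 ± 0.12), POLR3D (-2.06) and POLR1E (-2.02). From 4 to 8 h ELL (1.41 ± 0.08) and POLR1D (1.31 ± 0.05) gained most and POLR2H (-1.27), GTF2A2 (-1.02) and POLR3GL (-0.999) lost most.

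**Figure D4:**
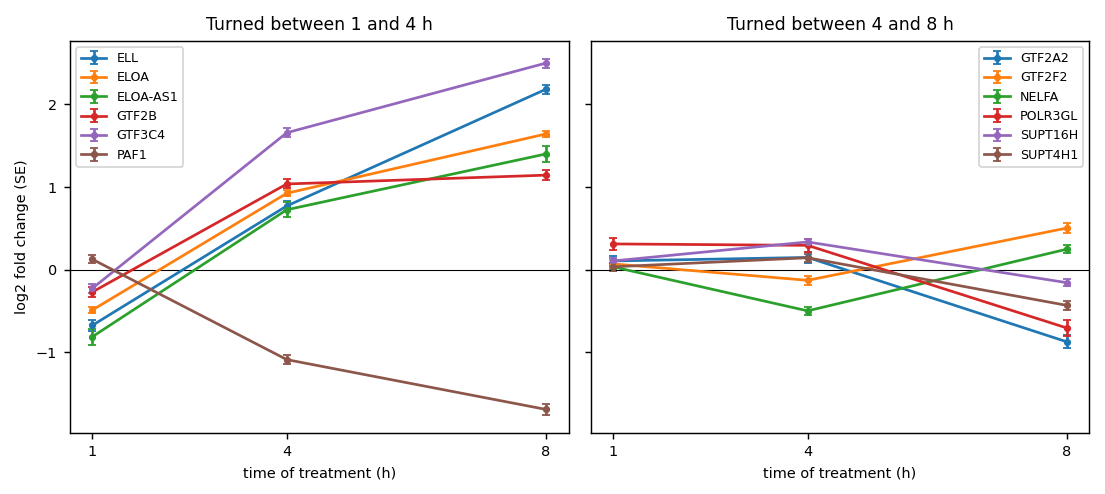
Log2 fold change of SK-3-91 against DMSO (vertical axis, whiskers are the SE) at 1, 4 and 8 h (horizontal axis) for the 12 genes whose call changed direction between neighbouring times. ELL, ELOA, ELOA-AS1, GTF2B and GTF3C4 cross from lower to higher between 1 and 4 h and PAF1 crosses the other way; without scaling factors the 4 h values of GTF2A2, SUPT4H1 and POLR3GL and the 8 h value of NELFA lie on the other side of 0.

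Some of these genes also differed between the DMSO groups. Between DMSO at 1 and 4 h, 16 were higher (23.2%; all genes 16.0%) and 5 lower (7.2%; all genes 19.1%), and between 4 and 8 h 1 was higher (1.4%; all genes 15.9%) and 22 lower (31.9%; all genes 14.8%). The gene that was higher between 4 and 8 h was POLR2H (0.20 ± 0.05). The changes were small: POLR3D rose by 0.40 ± 0.05 and then fell by 0.22, and POLR1B changed by 0.31 ± 0.05 and -0.29 ± 0.05. DMSO at each time was the reference for SK-3-91 at that time. Counts of such small changes moved with single libraries: the 5 lower genes became 2 without DMSO replicate 3 of 1 h, and the 1 higher gene became 4 without DMSO replicate 4 of 4 h, 3 without DMSO replicate 3 of 8 h, and 2 without DMSO replicate 1 or 2 of 8 h.

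Per kilobase of the deposited gene width, the 69 genes had a median level of 25.8 CPM per kb in DMSO at 1 h, beside 11.98 CPM per kb over all genes, and 53 of them lay above that value. SSRP1 was highest at 224 ± 3.02 CPM per kb (SD, n = 4), followed by GTF3A (120.6 ± 5.40) and POLR2L (120.5 ± 6.71), whose ranges overlapped, and by NELFCD (112 ± 1.73). POLR2A stood at 63.1 ± 4.53 CPM per kb and its catalytic partner POLR2B at 51.7 ± 0.93. The lowest levels were those of POLR2J4 (1.96 ± 0.23), GTF2H2C (1.10 ± 0.13) and GTF2IRD1 (0.96 ± 0.07), the last 2 with overlapping ranges. Of the 68 pairs of neighbours in this order, 50 had overlapping ranges.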

How the data were processed

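Total RNA of 24 MOLT4 libraries was read as 50-base single-end BGISEQ-500 reads, per the labels' protocols; edgeR and hg19 are named in the submitters' processing notes, and the aligner, counter and strand setting are not stated in any source used. The authors deposited gene counts for 9822 genes and a table of log2 values, which rescale the same counts without length. No gene had a mean count under 32.04. Groups came from the sample titles. The members, role lists and tests were chosen with earlier results of these data known.

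Counts were fitted with edgeR 4.0.16 in R 4.3.3 (quasi-likelihood test, TMM factors, 6 group means over 24 libraries, 18 residual degrees of freedom), with Benjamini-Hochberg adjustment over all genes, in 7 comparisons. The low-count filter removed 0 genes, and all 69 members passed (lowest count in a library 11). Alternatives were other scaling factors and filters, DESeq2 1.42.0, limma 3.58.1, a minimum fold of 1.5 and single libraries left out. The code was tested on simulated data. The 36 replicate pairs differed beyond sampling noise (chi-square per degree of freedom 1.63 to 7.82).

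Shared words and antisense exons came from GENCODE 29 (68 of 69 matched); the 13 members with at least 20% of either are uncertain, a limit set after the shares were seen. The named genes were fixed members of each complex, the 5 largest rises and falls at each time and up to 2 per list by 8 h change; other members were named after their values were seen. The values of 1 member are not reported here.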

Additional observations from a re-analysis of the deposited data

Results flagged for a closer look

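In 13 of 276 groups of 4 libraries (4.71%) 1 library stood apart from the other 3, and chance alone gives about 1 in 20. The check covered only part of the genes of the set, so the values listed here are not complete. Among genes not listed, GTF2E2 was 22.9 CPM in replicate 3 of SK-3-91 at 4 h and 19.5 CPM in each other library of that group. In DMSO at 8 h, replicate 4 held 3 of the flagged values, with POLR1A at 90.7 CPM, POLR1E at 41.2 CPM and POLR2L at 139 CPM. In DMSO at 1 h, replicate 2 held POLR2G at 62.2 CPM, GTF3C3 at 107 CPM and SUPT4H1 at 138 CPM. In DMSO at 4 h, GTF2I was 61.8 CPM in replicate 2 and GTF2H2C 4.21 CPM in replicate 4. In SK-3-91 at 1 h, GTF3A was 330.3 CPM in replicate 2 and POLR1D 158 CPM in replicate 4. NELFCD was 411 CPM in replicate 3 of SK-3-91 at 4 h. In SK-3-91 at 8 h, NELFA was 107 CPM in replicate 3, the shallowest library, and RTF1 98.4 CPM in replicate 2.

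The response differed between neighbouring times in 58 and 50 of the 69 genes, and 12 of these had calls in opposite directions. Between 1 and 4 h the log2 response changed by 1.88 in GTF3C4, 1.54 in ELOA-AS1, 1.44 in ELL, 1.41 in ELOA and 1.31 in GTF2B, from lower to higher. PAF1 changed by -1.21, from higher to lower. Between 4 and 8 h the change was -1.02 in GTF2A2, -0.999 in POLR3GL, -0.58 in SUPT4H1 and -0.49 in SUPT16H, from higher to lower, and 0.75 in NELFA and 0.63 in GTF2F2, from lower to higher. Without scaling factors the 4 h values of GTF2A2, POLR3GL and SUPT4H1 and the 8 h value of NELFA had the other sign. With RLE factors the 4 h call of GTF2F2 (-0.08) and the 8 h call of SUPT16H (-0.06) were lost. The 4 h call of GTF2F2 was lost without any 1 of 4 libraries (DMSO replicate 1 or 2, SK-3-91 replicate 1 or 3), with edgeR adjusted p between 0.0607 and 0.119.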

How the results depend on the processing

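Over all alternatives, 3612 of 3930 values of single genes kept direction and side of the threshold, 153 lost the call, 70 gained it, 34 changed sign with a call in at least 1 of the fits compared, and 61 small values called in neither fit changed sign. At 1 h, 26 genes were higher with RLE factors and 27 with DESeq2, against 17. A minimum fold of 1.5 left 0 higher and 2 lower at 1 h, 14 and 19 at 4 h, and 17 higher at 8 h; 10 and 19 for the change from 1 to 4 h and 6 and 6 from 4 to 8 h; and 0 and 0 in both comparisons between DMSO times. For DMSO at 8 against 4 h, 2 genes were higher when only those groups were fitted. With replicate number as a block 2 were higher there, and SK-3-91 against DMSO gave 34, 63 and 63 calls against 33, 63 and 63. Replicate numbers did not pair the libraries: same-number correlations were -0.143 to 0.0342, and 0 of 8 libraries at each time correlated best with their own number.

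Values that changed sign, with a call in at least 1 fit, without scaling factors and with limma on the deposited log2 values (which carry no factors), were at 4 h GTF2A2 (-0.15 and -0.12), GTF2F1 (-0.30 and -0.28), GTF2I (-0.021 and -0.017), SUPT4H1 (-0.15 and -0.14), SUPT5H (-0.093 and -0.092), POLR1C (-0.096 and -0.075), SUPT7L (-0.076 and -0.066) and, without factors only, POLR3GL (-0.0035). At 8 h they were GTF2H5 (-0.18 and -0.13), NELFCD (-0.14 and -0.14), SSRP1 (-0.25 and -0.25), NELFA (-0.18 and -0.17), CDC73 (-0.28 and -0.24, and -0.011 with upper-quartile factors), SUPT3H (-0.39 and -0.19), POLR2J4 (-0.25 and -0.13), POLR1C (-0.40 and -0.29) and SUPT7L (-0.34 and -0.29). Without factors 4 further values changed sign and were called in neither fit: GTF2IRD1P1 (-0.22) at 8 h, POLR2J4 (-0.14) at 4 h, and POLR1E (-0.0062) and SUPT7L (-0.020) at 1 h.

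Leaving out single libraries gave 13 to 17 higher and 15 to 16 lower at 1 h, 29 to 31 and 32 to 34 at 4 h, and 25 to 27 and 36 to 38 at 8 h. The change from 1 to 4 h gave 24 to 25 and 32 to 33, and that from 4 to 8 h 23 to 25 and 24 to 28. DMSO at 4 against 1 h gave 11 to 17 and 2 to 5, and DMSO at 8 against 4 h 1 to 4 and 18 to 22. The call was lost without at least 1 library in 8 of 33 genes at 1 h, 3 of 63 at 4 h and 2 of 63 at 8 h, and 0 called values changed sign. SK-3-91 totals stayed at 95.9 to 96.6%, 74.4 to 75.02% and 56.7 to 61.6% of DMSO, with an exact permutation p of 0.0571, the smallest that 3 against 4 allows. Levels per length from the second table were not run, since it carries no length.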

Other observations

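A further 69 genes that work with this machinery, from 8 lists, were followed in the same fit. They gave 13 higher and 30 lower at 1 h, 23 and 34 at 4 h, and 30 and 29 at 8 h, with median log2 fold changes of -0.09, -0.11 and -0.09. Of all genes, 24.9% were higher and 29.4% lower at 1 h, 42.0% and 45.9% at 4 h, and 41.3% and 48.1% at 8 h. Of 11 partners of elongin, 9 were higher and 1 lower at 4 h, and 8 and 2 at 8 h. Of 9 genes listed as polymerase I factors, 2 were higher and 7 lower at 4 h, and 3 and 5 at 8 h. These 9 include the subunits TWISTNB and CD3EAP. Of 8 mitochondrial transcription genes 1 was higher and 7 lower at 4 h, and 2 and 5 at 8 h. The response from 4 to 8 h shifted up in 8 and down in 1 of the 9 polymerase I factors. It shifted up in 6 and down in 0 of the 8 mitochondrial genes (all genes 35.6% up and 33.0% down).

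TWISTNB, the older symbol of the polymerase I subunit POLR1F, gave log2 fold changes of -0.02 ± 0.04, 1.42 ± 0.04 and 2.57 ± 0.04 in order of time, a course like that of POLR1D and unlike that of POLR1A and POLR1B. The ELL partners EAF1 and EAF2 moved apart, at 2.55 ± 0.05 and -2.50 ± 0.18 at 8 h; EAF1 is uncertain, since 40.8% of its exon bases lie opposite another gene's exons. CCNT2, a cyclin of P-TEFb, was -0.36 ± 0.07, 1.44 ± 0.07 and 2.33 ± 0.07, and MEPCE, which caps the 7SK RNA that holds P-TEFb inactive, was -1.24 ± 0.04, -2.49 ± 0.05 and -1.96 ± 0.05. BRF2, a polymerase III factor, was -1.55 ± 0.07 at 1 h and -1.58 ± 0.09 at 8 h, and 59.0% of its exon bases lie opposite another gene's exons. SPTY2D1, a histone chaperone, was -0.46 ± 0.05, 1.25 ± 0.05 and 2.44 ± 0.05.

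Among the 69 genes of the report, those lower at 4 h had a median genomic span of 37.7 kb and those higher 18.4 kb, and at 8 h 34.5 and 21.9 kb. Over the 68 genes with a span, its Spearman correlation with the log2 fold change was weak, at -0.269, -0.275 and -0.126 in order of time. The part of gene length in the response was not tested.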
